A study of Rattus norvegicus with 12 samples.

Results

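The comparison described here is that of the left atrium after an aorto-caval shunt with the left atrium after a sham operation. Its members were chosen by their labels and are 6 of the 12 arrays of the study, 3 of left atria from shunt rats and 3 of left atria from sham rats. All animals were male Sprague-Dawley rats of 225 to 275 g, both groups were sampled 28 days after their operation, and each array held RNA pooled from 2 atrial appendages. An aorto-caval shunt joins the large abdominal artery and vein, so that blood returns to the heart without passing through the tissues; sham rats had the operation without that connection. The other 6 arrays held right atria of the same design and enter below only where an effect in the left atrium is set beside that in the right. The arrays are replicates 1 to 3 of each group. The labels say no more of how the pools were made than that each came from 2 tissues, so p-values measure only the spread between pools.

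The left atrium receives the blood that comes back from the lungs, and under a shunt that return is raised for as long as the shunt carries blood. Atrial muscle cells are known to answer stretch with release of natriuretic peptides, with a shift towards contractile protein isoforms of the fetal heart and with signals to fibroblasts, which lay down matrix. Atria also hold nerve endings, resident macrophages, vessels and epicardial fat, and all of these contribute RNA to an appendage. In such bulk tissue, fewer cells of a type and less RNA per cell cannot be told apart.

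Values are log2 RMA values per probe set, a group of short probes for a transcript, on a scale shared by the arrays, where a difference of 1 is 2-fold. Differences are shunt minus sham with the standard error (SE) of a limma model of all 12 arrays, n = 3 pools per group. A gene was called when its p-value, adjusted by the Benjamini-Hochberg method over all 31042 probe sets, was under 0.05. A gene measured by several probe sets was represented by the brightest of them on average. The tissue fitted the atrium by its markers: Nppa, Myl7, Myl4 and Sln, genes of atrial muscle, lay between 13.50 and 14.43 on all 6 arrays. The tissue entry of the labels names ventricles besides atria. Irx4, a transcription factor of the ventricle, lay between 3.13 and 3.56 on these arrays. Myl2, the ventricular regulatory light chain, lay between 5.02 and 6.42. Some other genes better known from the ventricle were brighter. Myh7, described below, read 8.99 to 9.57 in shunt and 7.80 to 8.14 in sham. Of 10 such genes, 5 lay wholly higher in shunt and none wholly lower. Whether the pools held ventricular tissue was not tested.

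Shunt replicate 3 stood apart from replicates 1 and 2. On the first principal component of the 6 arrays, which held 39.1% of the variance, it lay at 41.30, while the other 5 arrays lay between -12.45 and -3.78. On the second component, with 25% of the variance, shunt replicates 1 and 2 lay at 22.17 and 18.99, the sham arrays between -13.45 and -10.68, and replicate 3 at -3.69. Its mean correlation with its own group was 0.989, against 0.992 and 0.993 for replicates 1 and 2 and 0.996 for each sham array. The beta-actin control probe sets for the 3' and 5' ends of the transcript differed by 1.39 on replicate 3, by 1.14 and 1.23 on the other shunt arrays and by 1.31 on each sham array. The same difference for GAPDH was 0.28 on replicate 3, 0.18 on each of the other shunt arrays and 0.20 to 0.21 on the sham arrays. The part of RNA quality in the results below was not tested. Results are therefore given with and without that array.

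With all 6 arrays, 233 of 31042 probe sets passed (0.751%), 88 higher and 145 lower in shunt, and 36 of them differed at least 2-fold. At an unadjusted p under 0.05 there were 4207. By gene, 53 of 14217 rose (0.373%) and 80 fell (0.563%). In all 133 the shunt and sham arrays did not overlap, but that held for 19.1% of all genes, with shunt wholly higher in 8.69% and wholly lower in 10.4%. Without shunt replicate 3, 189 genes rose (1.33%) and 147 fell (1.03%). Counts of called genes in the lists below are to be read beside these shares. Of the probe sets called, 208 were called both ways, 25 only with that array and 346 only without it, and none called both ways changed direction. The spread in these tests was estimated from all 12 arrays. A fit to the 6 left arrays alone called 13 probe sets, or 124 once shunt replicate 3 was left out, and of the 56 called genes with values in the text or its lists it kept 10, namely Hamp, H19, Gpr15lg, Rasd1, Aurkb, Igfbp3, Igf2, Fgg, Pdk4 and Slc17a7.

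**Figure D1:**
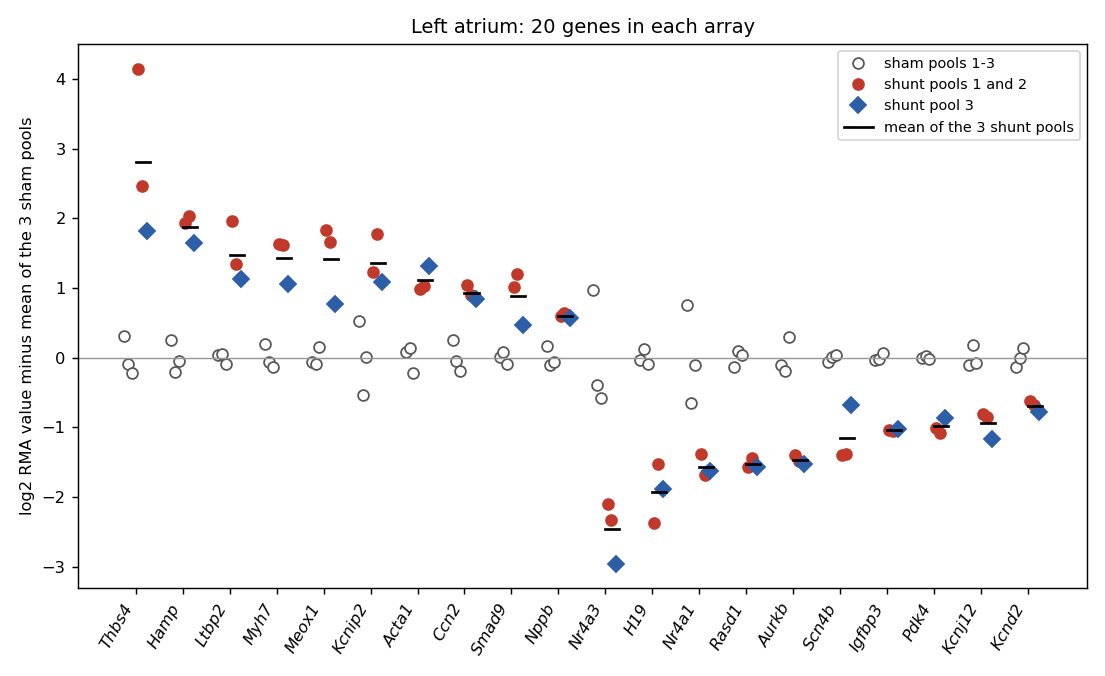
Log2 RMA value of 20 genes in each left atrial array, minus the mean of the 3 sham arrays of that gene (vertical axis, log2 units; 1 gene per column). Open circles are sham replicates 1 to 3, filled circles shunt replicates 1 and 2, diamonds shunt replicate 3 and black lines the mean of the 3 shunt arrays. Shunt replicate 3 lay nearest to sham for Thbs4, Meox1, Smad9 and Scn4b, and close to the other shunt arrays for Rasd1, Aurkb, Igfbp3, Nppb and Pdk4.

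Hamp, which encodes hepcidin, the peptide hormone that closes the iron exporter ferroportin, gave the smallest adjusted p of the named genes. It read 11.77, 11.87 and 11.49 in shunt replicates 1 to 3, against 10.09, 9.64 and 9.79 in the 3 sham pools. Every shunt pool was above every sham pool, with shunt replicate 3 the lowest of the shunt pools. The rise was 1.87 ± 0.12, or 3.65-fold (adjusted p = 4.14e-05), and 1.98 without shunt replicate 3 (adjusted p = 6.32e-06). In the right atrium the gene already stood at 12.38 ± 0.03 (SD, n = 3) in sham and at 12.56 ± 0.12 in shunt, so that the left shunt pools lay between the left sham and the right sham values.

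The stretch of 250 bases just before the Hamp start is shown because the gene moved more than any other member of its pathway. It was taken from RefSeq (assembly GRCr8, chr1:95300272-95300521, minus strand) and runs 5' to 3'. Capitals mark 2 motifs of the kinds that BMP and STAT signalling are known to use on this gene: GGCGCC, from base 129 to base 124 before the start, and TTCNNNGAA, from base 117 to base 109.
Hamp: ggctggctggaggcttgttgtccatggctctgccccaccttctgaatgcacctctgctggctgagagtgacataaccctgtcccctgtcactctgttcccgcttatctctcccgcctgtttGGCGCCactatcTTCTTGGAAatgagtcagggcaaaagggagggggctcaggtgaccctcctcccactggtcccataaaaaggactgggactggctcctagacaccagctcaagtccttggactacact
Both patterns are their own reverse complement, so each was found on both strands, and they do not overlap. Of 33469 promoter windows of that length, 8.69% held GGCGCC and 7.67% held TTCNNNGAA, so these matches are a description of the sequence.

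The other genes of iron handling did not follow Hamp. Of 17 measured, Hamp was the only one called, and the median difference was -0.01, the same as over all 14217 genes. Slc40a1, the ferroportin gene on whose protein hepcidin acts, differed by -0.27 ± 0.11 (adjusted p = 0.311). Tfrc, the transferrin receptor, differed by 0.00 ± 0.12 and Hmox1, which breaks down haem, by -0.02 ± 0.18. Without shunt replicate 3, Cp, the ferroxidase ceruloplasmin, was called as well, at 0.38 (adjusted p = 0.0496).

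Hepcidin is known to be switched on by bone morphogenetic proteins through the SMAD factors, and most of the calls in that pathway appeared when shunt replicate 3 was left out. Smad9, one of the receptor-activated SMADs of the pathway, read 7.21, 7.39 and 6.66 in shunt and 6.21, 6.28 and 6.10 in sham. The groups did not overlap, and replicate 3 was the lowest shunt pool. The rise was 0.89 ± 0.14 (adjusted p = 0.0154), or 1.10 without replicate 3 (adjusted p = 8.96e-05). A second Smad9 probe set differed by 0.29 and was not called. The first missed the threshold without shunt replicate 1 (adjusted p = 0.0539) or sham replicate 3 (adjusted p = 0.0812).

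Of 32 measured genes of TGF-beta and BMP signalling, Smad9 alone was called with all arrays. Without shunt replicate 3, 7 rose, against 1.33% of all genes, and the median moved from 0.12 to 0.18. Among ligands, Bmp4 read 7.98, 8.04 and 7.43 in shunt and 7.04, 6.84 and 7.06 in sham, a difference of 1.03 without replicate 3 (adjusted p = 0.00696) and 0.84 with it (adjusted p = 0.0563). Bmp6, the ligand best known for inducing hepcidin in the liver, differed by 0.66 without replicate 3 (adjusted p = 0.00922) and 0.51 with it (adjusted p = 0.0953), while its 4 probe sets ran from -0.05 to 0.51 with all arrays. Both inhibitory SMADs showed the same order of pools: Smad7 differed by 0.66 and Smad6 by 0.48 without replicate 3 (adjusted p = 0.0063 and 0.0204). The targets Id2 and Id3 differed by 0.71 and 0.55 without it (adjusted p = 0.0208 and 0.0483). A second probe set of Id2 was called with all arrays, at 0.96 ± 0.17 (adjusted p = 0.0228), where the first gave 0.25 ± 0.28. The receptors were not called either way: Bmpr1a differed by -0.10, Bmpr2 by -0.07, Acvrl1 by 0.07 and Tgfbr1 by 0.02. In replicate 3, 19 of the 32 genes lay below both other shunt pools (59.4%), against 37.7% of all genes.

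Of 19 measured genes of stretch and of the fetal programme, 5 rose and none fell, against 0.373% and 0.563% of all genes. Myh7, the slow beta myosin heavy chain, read 9.57, 9.56 and 8.99 in shunt against 8.14, 7.88 and 7.80 in sham, with no overlap. It rose by 1.44 ± 0.22, or 2.71-fold (adjusted p = 0.0124), and by 1.63 without shunt replicate 3. It missed the threshold without shunt replicate 2 (adjusted p = 0.0526), sham replicate 2 (adjusted p = 0.0597) or sham replicate 3 (adjusted p = 0.0709). A second Myh7 probe set read 8.53, 8.30 and 7.03 in shunt and 7.07, 6.62 and 6.39 in sham, so that replicate 3 overlapped the sham pools there; it differed by 1.26 ± 0.32 (adjusted p = 0.104).

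Acta1, the actin of skeletal muscle that the fetal heart also makes, read 11.24, 11.28 and 11.57 in shunt and 10.34, 10.39 and 10.03 in sham. Here replicate 3 was the highest pool, and the rise was 1.11 ± 0.14 (adjusted p = 0.00415). Nppb, which encodes the B-type natriuretic peptide, read 13.33, 13.37 and 13.30 in shunt and 12.90, 12.63 and 12.67 in sham, close to the top of the scale, and rose by 0.60 ± 0.08 (adjusted p = 0.00486). Nppa, the A-type peptide gene, read 14.42 to 14.43 in shunt and 14.37 to 14.39 in sham. The highest value on any array was 14.43. Its difference was 0.05 ± 0.06 (adjusted p = 0.78), with the pools not overlapping.

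The median of the 19 was 0.13. The other rises were in Uchl1, a deubiquitinating enzyme of nerve and stressed muscle, at 0.72 ± 0.14 (adjusted p = 0.0403), and Myot, a Z-disc protein, at 0.46 ± 0.09 (adjusted p = 0.0456). Each of these calls was weak: Uchl1 missed the threshold with any of 10 of the 12 arrays left out (adjusted p 0.0593 to 0.149) and Myot with any of 11 (0.0617 to 0.14), shunt replicate 3 among the latter. Ankrd1, a stretch-responsive protein of the muscle nucleus and Z-disc, differed by 0.22 ± 0.06 (adjusted p = 0.132).

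Of 10 genes better known from the ventricle, Myh7 alone was called with all arrays, and 2 rose without shunt replicate 3. Myl3, the ventricular essential light chain, lay at 9.56 ± 0.41 in shunt and 8.53 ± 0.50 in sham (SD, n = 3), without overlap, a difference of 1.03 ± 0.31 that was not called (adjusted p = 0.166). The median of the 10 was 0.20, and in 5 of them the shunt pools lay wholly above the sham pools, as in 8.69% of all genes. Their median difference from the sham mean was 0.28, 0.36 and 0.12 in the shunt pools and ran from -0.06 to 0.05 in the sham pools. Irx4 differed by -0.13 ± 0.34. What these markers contribute to the rise of Myh7 was not tested. Of 5 probe sets assigned to Myh1, a skeletal myosin heavy chain, 4 rose, the brightest by 0.54 ± 0.08 (adjusted p = 0.00631). The remaining one read 7.58, 7.29 and 8.76 in shunt and 8.12, 8.09 and 8.37 in sham, a difference of -0.31 (adjusted p = 0.676) that became a fall of 0.76 without shunt replicate 3 (adjusted p = 0.0242). Myosin heavy chain genes are near copies of each other, so which of them these probes read is uncertain.

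Of genes acting around the matrix, Thbs4 moved most. It encodes thrombospondin 4, a matricellular protein, that is, one that sits in the matrix and signals to cells without building fibres. It read 9.54, 7.85 and 7.21 in shunt and 5.71, 5.30 and 5.17 in sham. All shunt pools were higher, and they differed among themselves by more than 2 units, with replicate 1 the highest and replicate 3 the lowest. The rise was 2.81 ± 0.43, or 7.01-fold (adjusted p = 0.011), and 3.30, or 9.88-fold, without replicate 3 (adjusted p = 0.000866). Without sham replicate 2 or 3 the adjusted p was 0.0539 or 0.0646.

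Ltbp2, which binds fibrillin in elastic fibres, read 8.48, 7.87 and 7.65 in shunt and 6.56, 6.57 and 6.43 in sham and rose by 1.48 ± 0.19 (adjusted p = 0.00359). Ccn2, the connective tissue growth factor gene, read 11.58, 11.44 and 11.38 in shunt and 10.79, 10.49 and 10.35 in sham and rose by 0.92 ± 0.13 (adjusted p = 0.00742). Neither gene's groups overlapped, and leaving out any 1 array kept both calls. Ccn5, a relative of Ccn2 that lacks one of its domains, rose by 0.71 ± 0.12 (adjusted p = 0.024); it missed the threshold without shunt replicate 1 or 2 or sham replicate 2 or 3 (adjusted p 0.0709 to 0.0984).

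In all, 3 of 18 matricellular genes rose and none fell, against 0.373% and 0.563% of all genes. Their median was 0.17. Spp1, osteopontin, joined them without shunt replicate 3, at 1.08 (adjusted p = 0.0217; 0.82 with it, adjusted p = 0.139). Postn, periostin, differed by 0.16. In shunt replicate 3, 13 of the 18 lay below both other shunt pools (72.2%), against 37.7% of all genes. None lay above both, against 36.6% of all genes. Of 19 elastic fibre genes, Ltbp2 alone was called with all arrays, and without replicate 3 Mfap4 and Loxl1 passed too, at 0.51 and 0.48 (adjusted p = 0.0226 and 0.025).

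The fibrillar collagens did not follow. Col1a1 differed by -0.04 ± 0.11 and Col3a1 by 0.00 ± 0.08. Of 20 collagen genes, 1 rose and 1 fell. Col4a2, of the basement membrane, rose by 0.49 ± 0.10 (adjusted p = 0.0419), a call lost with any of 9 of the 12 arrays left out (adjusted p 0.0549 to 0.143), both other shunt pools and all 3 sham pools among them. Col6a6, a chain of the beaded collagen VI filaments, read 4.53, 4.91 and 5.45 in shunt and 6.09, 6.35 and 6.34 in sham and fell by 1.30 on the log2 scale (SE 0.17, adjusted p = 0.00527), or by 1.54 without replicate 3 (adjusted p = 7.81e-05). Col8a1, a short-chain collagen of vessel walls, read 9.91, 9.06 and 7.86 in shunt and 7.59, 7.26 and 7.23 in sham. Its 3 shunt pools lay above the sham pools but spread over 2 units, so that it was not called with all arrays (1.58 ± 0.37, adjusted p = 0.08) and was called without replicate 3 (2.12, adjusted p = 0.00097). In replicate 3, 17 of the 20 collagens lay below both other shunt pools (85%), against 37.7% of all genes.

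Meox1, a homeobox factor of activated cardiac fibroblasts, read 6.44, 6.26 and 5.38 in shunt and 4.55, 4.51 and 4.76 in sham. It rose by 1.42 ± 0.21 (adjusted p = 0.00916), and by 1.74 without replicate 3 (adjusted p = 3.14e-05). With single arrays left out, it missed the threshold only without sham replicate 2 (adjusted p = 0.0511). It also missed it in the fit to the left arrays alone (adjusted p = 0.155). Of 14 fibroblast markers, Meox1 and Thy1, a surface glycoprotein, were called; Thy1 rose by 0.60 ± 0.12 (adjusted p = 0.0419) and missed the threshold with any of 11 arrays left out (adjusted p 0.0551 to 0.14). The mean level of the 14 was 9.76, 9.78 and 9.43 in shunt and 9.46, 9.42 and 9.48 in sham. Replicates 1 and 2 were thus above the sham pools on this measure and replicate 3 was among them. Of the 14 differences 9 were above 0, with a median of 0.06, or 0.12 without shunt replicate 3. Pdgfra and Tcf21, defining markers of resident fibroblasts, were among the others, at -0.11 and -0.15 with all arrays. The part of these markers in the matrix genes was not tested.

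**Figure D2:**
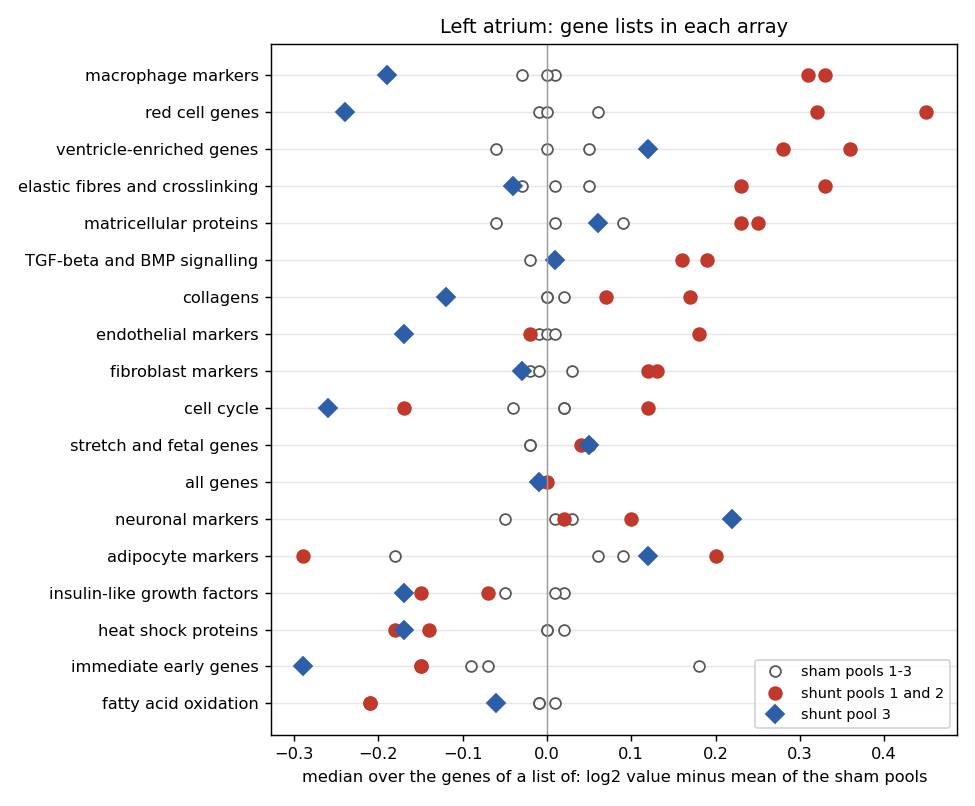
Median over the genes of a list of the log2 value minus the mean of the 3 sham arrays (horizontal axis), for 17 gene lists and for all genes. Open circles are sham replicates, filled circles shunt replicates 1 and 2, and diamonds shunt replicate 3, which lay among or below the sham arrays for the macrophage, red cell, elastic fibre, TGF-beta and collagen lists (for macrophage markers -0.19, against 0.31 and 0.33) and with the other shunt arrays for heat shock proteins.

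Genes of the immediate early response, which cells switch on within minutes of a stimulus, were lower in shunt at the Nr4a receptors. These are orphan nuclear receptors that act as transcription factors without a known hormone. Nr4a3 read 5.27, 5.05 and 4.42 in shunt and 8.35, 6.98 and 6.80 in sham. The groups were apart by more than 1 unit, with sham replicate 1 the highest of all and shunt replicate 3 the lowest. The fall was -2.46 ± 0.32, or 5.52-fold (adjusted p = 0.00433), and -2.22 without shunt replicate 3 (adjusted p = 0.00456). A second Nr4a3 probe set fell by 1.17 (adjusted p = 0.0225) and the remaining one differed by -0.05.

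Nr4a1 read 7.72, 7.42 and 7.47 in shunt and 9.86, 8.45 and 8.99 in sham and fell by 1.56 on the log2 scale (SE 0.27, adjusted p = 0.0237). Its call was lost without shunt replicate 2 (adjusted p = 0.0747) or sham replicate 3 (adjusted p = 0.0812). Nr4a2, the remaining member of the family, differed by -0.44 ± 0.13 (adjusted p = 0.166). The 250 bases before the Nr4a1 start are shown since it is the called member with a window in the table (RefSeq, GRCr8, chr7:134259888-134260137, plus strand, 5' to 3'). Capitals mark CGTCA, the reverse strand of TGACG, which is the short form of the element bound by the cAMP-responsive factor CREB.
Nr4a1: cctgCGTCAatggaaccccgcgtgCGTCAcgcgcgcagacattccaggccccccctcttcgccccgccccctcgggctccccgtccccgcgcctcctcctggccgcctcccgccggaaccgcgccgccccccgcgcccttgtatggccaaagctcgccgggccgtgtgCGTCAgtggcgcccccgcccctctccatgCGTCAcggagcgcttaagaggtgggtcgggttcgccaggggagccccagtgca
The window held 4 matches. On either strand, TGACG was in 18.2% of 33469 promoter windows and in 11 of the 19 immediate early genes with a window. Its long form TGACGTCA was in 1.59% of windows and 4 of the 19, and the serum response element in 1.5% and 5. The NR4A binding motif AAAGGTCA was in 1.24% of windows and in none of the 19. A GGCGCC also lies in the Nr4a1 window, from base 75 to base 70, and is left in lower case.

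Of 29 immediate early genes, Nr4a3 and Nr4a1 were the only ones called with all arrays, and the list's median was -0.17. The genes next in order were Atf3, at 3.96, 3.81 and 3.73 in shunt and 7.29, 5.69 and 4.66 in sham (-2.05 ± 0.44, adjusted p = 0.0558), and Fosb, at 3.60, 3.54 and 3.45 against 5.77, 3.97 and 4.54 (-1.23 ± 0.32, adjusted p = 0.104). Sham replicate 1 was the highest pool for Atf3 and Fosb, and likewise for Fos, Egr1, Jun and Junb. Fos read 7.83 there, against 5.80 and 7.16 in the other sham pools and 5.76, 6.19 and 5.33 in shunt, so its groups overlapped (-1.17 ± 0.43, adjusted p = 0.247). The mean level of the list was 7.59, 7.07 and 7.17 in sham and 6.97, 6.96 and 6.72 in shunt. Nr4a3 kept its call without sham replicate 1. Not all members lay lower: Ier3 differed by 0.35 (adjusted p = 0.102), and without shunt replicate 3 Dusp6 and Maff rose by 0.60 and 0.62 (adjusted p = 0.0173 and 0.0219).

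**Figure D3:**
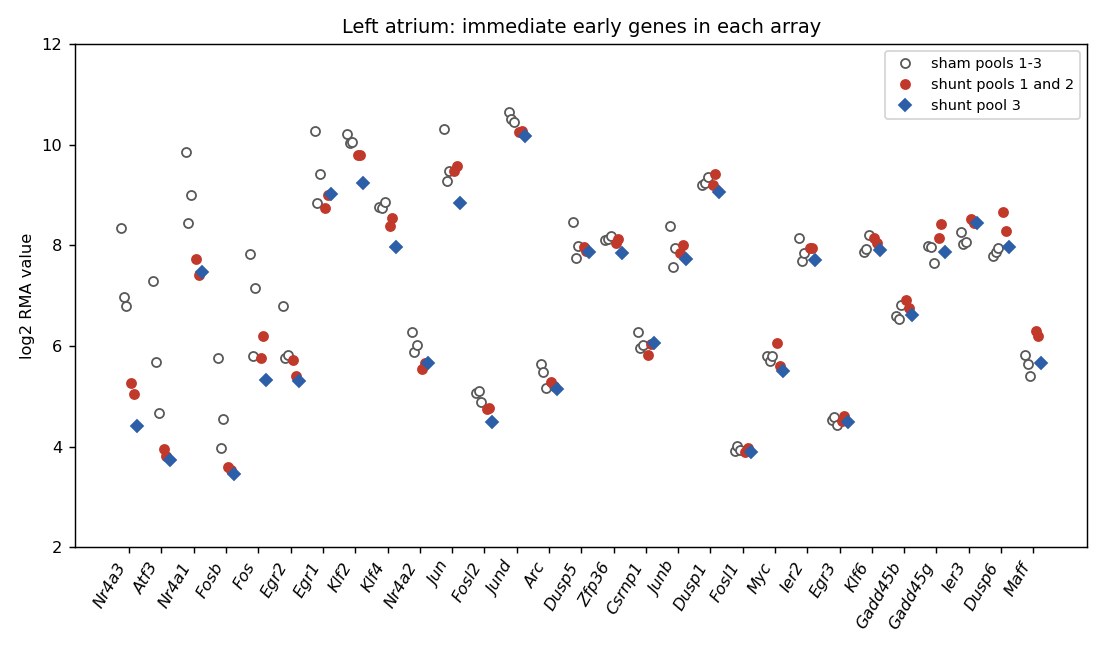
Log2 RMA value (vertical axis) of 29 immediate early genes in the 6 left atrial arrays, ordered by shunt minus sham. Open circles are sham replicates 1 to 3 from left to right, filled circles shunt replicates 1 and 2, and diamonds shunt replicate 3. The leftmost sham circle is the highest of the 6 for Nr4a3, Atf3, Nr4a1, Fosb, Fos, Egr2, Egr1 and Jun.

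Of 21 heat shock protein genes 1 fell. Hspa1a, the inducible HSP70, read 8.38, 8.51 and 8.35 in shunt and 9.20, 8.91 and 8.94 in sham and fell by 0.60 on the log2 scale (SE 0.08, adjusted p = 0.00625). The median of the 21 was -0.14, and their median difference from the sham mean was -0.18, -0.14 and -0.17 in the 3 shunt pools. In 10 of the 21 the shunt pools lay wholly below sham (10.4% of all genes) and in 2 wholly above (8.69% of all genes). Without shunt replicate 3, Hspa2 was called as higher, at 0.57 (adjusted p = 0.0177).

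Channel genes changed in both directions. Kcnip2, which encodes the KChIP2 subunit of the transient outward potassium current, read 9.16, 9.70 and 9.01 in shunt and 8.45, 7.39 and 7.94 in sham. It rose by 1.36 ± 0.22 (adjusted p = 0.0153), a second probe set rose by 1.27 (adjusted p = 0.0199), and the remaining one differed by 0.07. The first missed the threshold without shunt replicate 2 (adjusted p = 0.0526) or sham replicate 3 (adjusted p = 0.07). Kcnd2, the pore subunit Kv4.2 with which KChIP2 assembles, moved the other way: it read 6.71, 6.64 and 6.54 in shunt and 7.19, 7.32 and 7.47 in sham and fell by 0.70 (SE 0.11, adjusted p = 0.0163). That call was lost without shunt replicate 2 or sham replicate 2 or 3 (adjusted p 0.0536 to 0.0855). Kcnd3, the other pore subunit of this current in heart, differed by 0.08 ± 0.09.

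Kcnj12, an inward rectifier channel of the resting potential, read 5.25, 5.21 and 4.89 in shunt and 5.95, 6.24 and 5.99 in sham and fell by 0.95 (SE 0.12, adjusted p = 0.00377). The atrial ultrarapid channel gene Kcna5 differed by -0.66 ± 0.14 (adjusted p = 0.0609), its pools not overlapping. Of 27 potassium channel genes 1 rose and 2 fell, with a median of 0.03, and 3 rose and 2 fell without shunt replicate 3.

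Scn4b, a beta subunit of the sodium channel, read 5.93, 5.95 and 6.65 in shunt and 7.27, 7.34 and 7.37 in sham. Replicate 3 lay between the other shunt pools and sham. The fall was -1.15 ± 0.20 (adjusted p = 0.0229), and -1.38 without replicate 3 (adjusted p = 0.0015); the call was lost without shunt replicate 1 or 2 or any sham replicate (adjusted p 0.0547 to 0.096). Cacna1d, a pacemaking L-type calcium channel, rose by 0.56 ± 0.10 (adjusted p = 0.0274), but its several probe sets averaged to 0.17 (adjusted p = 0.267), and its call was lost without shunt replicate 1 or sham replicate 2 or 3 (adjusted p 0.0797 to 0.121). Of 21 sodium, calcium and pacemaker channel genes these 2 were called with all arrays, and 1 rose and 2 fell without shunt replicate 3. Of 25 genes of the sarcoplasmic reticulum and calcium handling Jph1, which ties that store to the cell surface, was the only one called with all arrays. It differed by -0.36 ± 0.07 (adjusted p = 0.0356), and the call was lost with any of 11 arrays left out (adjusted p 0.051 to 0.0957). Without shunt replicate 3, S100a1 was called as well, at -0.51 (adjusted p = 0.0403).

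Pdk4 and Rasd1 fell in all 3 shunt pools. Pdk4, the kinase that shuts pyruvate dehydrogenase and so spares glucose, read 8.60, 8.52 and 8.73 in shunt and 9.60, 9.63 and 9.58 in sham, a fall of 0.99 on the log2 scale (SE 0.08, adjusted p = 0.000244). A second Pdk4 probe set read 7.16, 6.95 and 6.66 in shunt and 7.61, 7.66 and 7.72 in sham, with replicate 3 the lowest, and fell by 0.74 (adjusted p = 0.00838). Rasd1, a small GTPase induced by glucocorticoids, lay at 6.05 ± 0.08 in shunt and 7.56 ± 0.12 in sham (SD, n = 3), a fall of 1.52 (SE 0.12, adjusted p = 0.000242). The groups overlapped in neither gene, and both calls held under every alternative tried. Of 21 glucocorticoid-responsive genes these 2 were called, both lower, and the median was -0.11.

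No gene of fatty acid uptake and oxidation was called through the probe set that stood for it. Of 32 differences 28 were below 0, with a median of -0.16, while 6909 of all 14217 genes were above 0. In 13 of the 32 the shunt pools lay wholly below sham, as in 10.4% of all genes. Without shunt replicate 3 the median was -0.21 and 4 fell: Cpt1a, which admits fatty acids to the mitochondrion, by 0.44 (adjusted p = 0.0291), Ech1 by 0.36, Hadha by 0.33 and Mlycd by 0.32. A second Cpt1a probe set read 8.19, 8.14 and 8.10 in shunt and 8.62, 8.79 and 8.75 in sham and was called with all arrays, at -0.58 ± 0.08 (adjusted p = 0.00742). In replicate 3, 25 of the 32 genes lay above both other shunt pools (78.1%), against 36.6% of all genes. Genes of the TCA cycle and respiratory chain had a median of -0.01 and none of 29 was called.

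In retinoid metabolism 2 of 21 genes fell with all arrays, and 4 without shunt replicate 3. Retsat, which saturates retinol, read 7.93, 8.22 and 8.37 in shunt and 8.98, 9.52 and 9.25 in sham and fell by 1.08 (SE 0.13, adjusted p = 0.00329). Lrat, which esterifies retinol, fell by 0.36 (adjusted p = 0.0364) at a level of about 4, and its call was lost with any of 10 arrays left out (adjusted p 0.0537 to 0.135). Rbp7, a cellular retinol-binding protein, read 6.32, 5.33 and 7.14 in shunt and 6.89, 7.10 and 7.23 in sham and was called only without replicate 3, at -1.24 (adjusted p = 0.0172). Npas2, a partner of BMAL1 in the circadian clock, fell by 0.64 (SE 0.11, adjusted p = 0.0163), the only one called of 20 clock genes; it missed the threshold without shunt replicate 1 or sham replicate 1 or 3 (adjusted p 0.054 to 0.0812).

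The insulin-like growth factor genes fell at 4 of 13 members, and none rose, against 0.563% and 0.373% of all genes. H19, a non-coding RNA made from the imprinted locus next to Igf2, read 7.32, 8.16 and 7.81 in shunt and 9.65, 9.82 and 9.60 in sham, a fall of 1.93 (SE 0.16, adjusted p = 0.000244). Igf2 itself fell by 0.82 (SE 0.11, adjusted p = 0.00583), but averaged over all its probe sets it differed by -0.14 and was not called. Igfbp3, the main carrier of these factors, read 6.98, 6.97 and 6.99 in shunt and 7.98, 7.99 and 8.08 in sham and fell by 1.03 (SE 0.10, adjusted p = 0.000402), with a second probe set at -1.07 (adjusted p = 0.00186). Igf1 fell by 0.46 (adjusted p = 0.0484), and this was lost with any of 11 arrays left out (adjusted p 0.0582 to 0.162), replicate 3 included.

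Other falls were of single genes in their lists. Aurkb, the mitotic kinase Aurora B, read 5.78, 5.70 and 5.66 in shunt and 7.08, 6.99 and 7.47 in sham and fell by 1.47 (SE 0.18, adjusted p = 0.00241). The other 36 genes of cell division were not called with all arrays through the probe set that stood for them, and the median of the list was -0.04. Without replicate 3, 2 rose, Ccnd1 by 1.07 (adjusted p = 0.0021) and Ccnd2 by 0.60 (adjusted p = 0.0323), both D-type cyclins of the step into the cell cycle. Ccnd1 read 9.80, 9.29 and 8.02 in shunt and 8.44, 8.44 and 8.55 in sham, with replicate 3 below all sham pools. On its other probe sets replicate 3 lay above all sham pools: one read 9.07, 9.15 and 8.66 against 8.45, 8.30 and 8.39 and was called with all arrays (0.58, adjusted p = 0.043), and the other differed by 0.57 (adjusted p = 0.0591).

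Fgg, a fibrinogen chain, read 4.29, 4.17 and 4.29 in shunt and 5.27, 5.53 and 5.43 in sham and fell by 1.16 (SE 0.09, adjusted p = 0.000242). The other fibrinogen chains Fga and Fgb differed by -0.21 and -0.31 and were not called. Gpr15lg, a secreted ligand of the receptor GPR15, read 6.68, 6.52 and 6.26 in shunt and 8.18, 8.11 and 8.30 in sham and fell by 1.71 (SE 0.16, adjusted p = 0.000402). Slc17a7, a vesicular glutamate transporter, fell by 1.03 (SE 0.12, adjusted p = 0.00198), to 5.40, 5.40 and 5.56 from 6.45, 6.41 and 6.58, while its second probe set differed by -0.40 and was not called. None of these groups overlapped. Epb41l3, a protein that links the membrane to the cytoskeleton, fell by 1.05 (adjusted p = 0.00618; second probe set -0.95, adjusted p = 0.00208) and Iqgap2, a scaffold of the same kind, by 1.10 (adjusted p = 0.00216).

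Ptgds, the prostaglandin D synthase, read 6.94, 6.72 and 6.74 in shunt and 7.39, 8.22 and 7.61 in sham and fell by 0.94 (adjusted p = 0.041). Timp4, an inhibitor of matrix proteases that is abundant in heart, fell by 0.60 (adjusted p = 0.0481). Both calls were frail: Ptgds lost it with any of 9 arrays left out (adjusted p 0.0501 to 0.11) and Timp4 with any of 10 (adjusted p 0.0623 to 0.159), shunt replicate 3 in each case among them.

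Of immune genes, Cxcl13, a chemokine that draws B cells, read 4.74, 5.19 and 4.82 in shunt and 3.81, 3.61 and 4.25 in sham, all at the low end of the scale. It rose by 1.03 ± 0.19 (adjusted p = 0.0298) and missed the threshold without shunt replicate 2 or sham replicate 1 or 2 (adjusted p 0.0803 to 0.11). Cxcr4, the receptor for CXCL12, rose by 0.54 ± 0.10 (adjusted p = 0.0358), and a second probe set by 0.57 (adjusted p = 0.0321); the first call was lost with any of 10 arrays left out (adjusted p 0.05 to 0.126). These were the 2 called of 35 chemokine and cytokine genes with all arrays. Without shunt replicate 3, Ccl19 and Cxcl16 rose too, by 0.59 and 0.47 (adjusted p = 0.0201 and 0.0246). RT1-DMb and RT1-Da, class II histocompatibility genes, rose by 0.75 and 0.57 (adjusted p = 0.0321 and 0.0368). They lost the call with any of 6 and of 11 arrays left out (adjusted p up to 0.121 and 0.144). RT1-Ba, Ciita and Cd74, also of the class II system, differed by 0.31, 0.31 and -0.07 and were not called (adjusted p = 0.415, 0.147 and 0.728).

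None of 14 macrophage markers was called with all arrays. Lyz2, lysozyme, read 10.97, 10.85 and 10.28 in shunt and 10.14, 10.11 and 10.15 in sham; it was called without replicate 3, at 0.78 (adjusted p = 0.00117), as was Aif1 at 0.62 (adjusted p = 0.0204). The mean level of the 14 was 7.16, 7.20 and 6.68 in shunt and 6.82, 6.87 and 6.88 in sham. Replicate 3 was the lowest of the 6 arrays on it. It lay below both other shunt pools for all 14 markers, against 37.7% of all genes. The part of these markers in the rises of RT1-DMb and RT1-Da was not tested.

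Among vessel genes, Angpt2, a destabilising ligand of the endothelial receptor TIE2, read 7.46, 7.32 and 6.99 in shunt and 6.53, 6.23 and 6.46 in sham and rose by 0.85 ± 0.12 (adjusted p = 0.00583), also with any 1 array left out. None of 15 endothelial markers was called. Among neuronal markers, Prph, the intermediate filament peripherin of peripheral neurons, read 6.65, 7.09 and 6.93 in shunt and 5.79, 5.97 and 5.99 in sham and rose by 0.97 ± 0.11 (adjusted p = 0.00174). It and Uchl1, whose weak call is described above, were the 2 called of 27. Differences were above 0 for 23 of the 27, against 6909 of all 14217 genes. The median was 0.09, or 0.06 without shunt replicate 3.

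Leaving out shunt replicate 3 brought in 214 genes whose groups then did not overlap, 140 higher and 74 lower. The largest of the rises, after Col8a1, was in Frzb, a secreted inhibitor of WNT ligands, at 8.55, 8.16 and 6.99 in shunt and 6.99, 6.36 and 6.33 in sham (1.80 without replicate 3, adjusted p = 0.0015; 1.35 with it, adjusted p = 0.0845). Serpine2, a protease inhibitor, read 9.47, 8.91 and 8.15 against 8.18, 7.74 and 7.87, or 1.26 without replicate 3 (adjusted p = 0.0021). Pi16, a marker of adventitial fibroblasts, read 8.77, 8.73 and 7.77 against 7.99, 7.61 and 7.79, or 0.96 (adjusted p = 0.00273). In each of these replicate 3 lay within the range of the sham pools or at its edge. Genes of the red cell were called only this way too. Alas2, the erythroid enzyme of the first step of haem synthesis, read 8.79, 8.53 and 7.36 in shunt and 7.55, 7.81 and 7.60 in sham. Without replicate 3 Alas2 differed by 1.01 (adjusted p = 0.000582) and Hbb by 0.52 (adjusted p = 0.0088). Of 6 red cell genes 3 were called this way, their median differences from the sham mean were 0.45, 0.32 and -0.24 in the shunt pools, and their part in other results was not tested. In the other direction 11 genes lost their call without replicate 3.

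**Figure D4:**
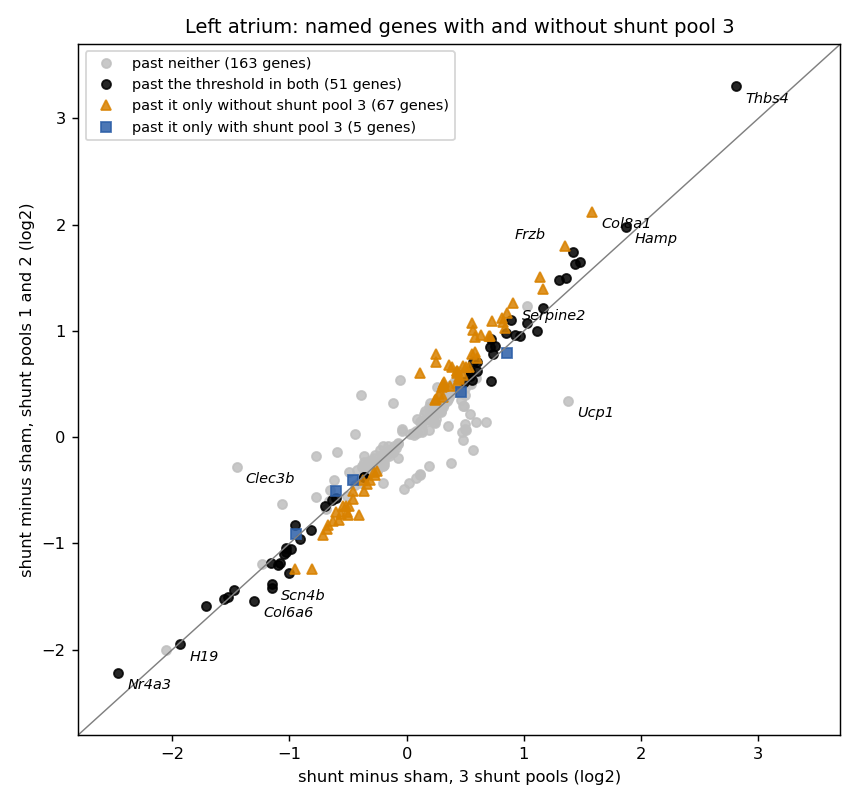
Shunt minus sham in the left atrium with all 3 shunt arrays (horizontal axis, log2) and with shunt replicates 1 and 2 alone (vertical axis, log2) for the 286 genes with values in the tables behind the text; the line marks equal values. Triangles are the 67 genes called only without replicate 3, which all lie farther from 0 on the vertical than on the horizontal axis, black circles the 51 called both ways, squares the 5 called only with it and grey circles the rest. Some genes were picked for being called only without replicate 3. The counts and the place of the triangles follow in part from that choice.

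Some genes set shunt replicate 3 apart from all other left arrays. Ucp1, the uncoupling protein that defines brown fat, read 7.56 there, against 4.22 and 4.66 in the other shunt pools and 3.87 to 4.40 in sham. Plin1, which coats fat droplets, read 5.89 against 4.34 and 4.89, and Thrsp, a lipogenic factor, 7.07 against 4.67 and 6.26. Replicate 3 lay above both other shunt pools in 36.6% of all genes. It did so for 11 of 15 adipocyte markers (73.3%) and 6 of 8 brown fat markers (75%). Their spread was wide in every group: Adipoq read 4.85, 5.85 and 6.09 in shunt and 4.67, 5.54 and 5.51 in sham. Nefl, a neurofilament chain, read 4.35 against 3.17 and 3.24. Of the 27 neuronal markers 17 lay above both other shunt pools there (63%). Clec3b, the plasminogen-binding protein tetranectin, read 8.49 and 8.53 in shunt replicates 1 and 2 and 8.53 to 8.94 in sham, and differed by -3.51 between replicate 3 and the mean of the other shunt pools. Per3, a clock gene, read 7.83 against 6.27 and 6.35. None of these genes was called in shunt minus sham.

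The shunt effect in the left atrium was set against that in the right by a test of the difference. The left effect minus the right effect was called for 8 of 31042 probe sets (0.0258%), 21 without left shunt replicate 3, and at an unadjusted p under 0.05 for 4467. Of the genes that rose or fell in the left atrium through the probe set that stood for them in the text above, Hamp alone was among the 8: its right effect was 0.17 ± 0.12, and the difference between the sides was 1.69 ± 0.17 (adjusted p = 0.00753), or 1.80 without left shunt replicate 3 (adjusted p = 0.00177). That call was lost without right sham replicate 1 (1.68, adjusted p = 0.0526). Nr4a3 fell by 2.46 in the left and differed by -0.34 in the right, and the difference of -2.12 was not called (adjusted p = 0.141). Smad9 differed by 0.07 in the right, Kcnd2 by -0.01, Scn4b by -0.17, Iqgap2 by -0.02 and Igf2 by -0.12, with adjusted p between 0.0846 and 0.188 for the difference between sides.

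Other genes had like values on both sides. Myh7 rose by 1.44 in the left and 1.48 in the right, Ccn2 by 0.92 and 0.98, Meox1 by 1.42 and 1.23, Ltbp2 by 1.48 and 1.20, all called on each side, and Rasd1 and Aurkb fell on both. Ccn5 rose by 1.55 ± 0.12 in the right against 0.71 ± 0.12 in the left, and Acta1 by 1.59 against 1.11, with adjusted p = 0.141 and 0.308 for the difference.

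**Figure D5:**
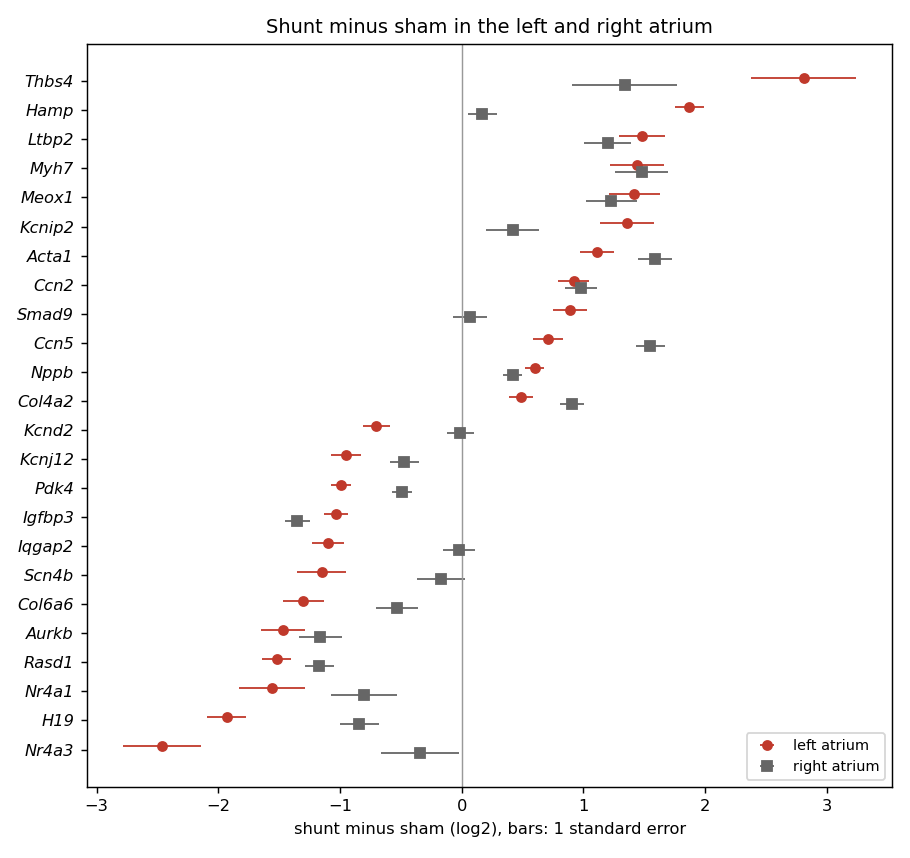
Shunt minus sham (horizontal axis, log2; bars are 1 standard error of the fit, n = 3 pools per group) in the left atrium (circles) and the right atrium (squares) for 24 genes, ordered by the left effect. The difference between the sides was called for Hamp only, at 1.87 in the left and 0.17 in the right.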

How the data were processed

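For each of 12 arrays the authors deposited log2 values of its probe sets. The submitters' processing notes name RMA as the method; its version is not given in the sources used here. RMA subtracts background, quantile-normalizes and summarises probes, so a change shared by most transcripts is not visible, and medians of the left arrays lay between 5.44 and 5.47. Of 31099 probe sets the 57 controls were left out. The array's annotation gave 1 gene for 20826, several for 436 and none for 9780 of the rest; only the first were named, covering 14217 genes, with symbols updated through RefSeq. The values were fitted as deposited with limma 3.58.1 (lmFit, eBayes) in R 4.3.3 with 1 mean per group, and tables were made with Python 3.11.15 and pandas 2.3.3. All adjusted p-values are limma's, two-sided, with Benjamini-Hochberg adjustment over 31042 probe sets. In the alternatives by gene or without dim probe sets, the adjustment ran over the genes or probe sets fitted. Scripts were tested on simulated data. Arrays give no read depth, and 3 pools per group limit the precision.

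The genes named were the largest rises and falls among called genes with non-overlapping groups, with and without left shunt replicate 3, the genes in which that array departed most from its group, the members of 44 lists with the smallest p and a few genes of known role given in any case; other probe sets of these genes were added where they were called or differed. The comparison, the genes and the lists were chosen with earlier results of these data known. The motifs GGCGCC and TTCNNNGAA were chosen after the values had been seen. Replicate numbers were not taken to pair the samples: deviations of same-numbered arrays correlated at -0.0765, -0.00725 and -0.0653 between left shunt and sham, at 0.134, 0.143 and 0.0946 between left and right shunt and at 0.0974, 0.148 and 0.0789 between left and right sham, and the labels do not say that a number marks shared rats. The alternatives were leaving out each array, only the left arrays, a replicate block, leaving out dim probe sets, other normalizations, other eBayes options, array weights and other ways of joining probe sets.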

Additional observations from a re-analysis of the deposited data

Results flagged for a closer look

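The shunt effect differed between the left and the right atrium, by a test of that difference, at 8 probe sets; values are left effect minus right effect on the log2 scale. Hamp differed by 1.69 and is described above. A probe set of Cxcr5, a chemokine receptor of B cells, differed by 0.93: it read 6.83 ± 0.12 in left shunt and 6.56 ± 0.07 in left sham (SD, n = 3), against 6.31 ± 0.05 and 6.98 ± 0.06 in the right. A second Cxcr5 probe set, at 0.01 in left shunt minus left sham, was not among the 8. Ccr6, another chemokine receptor, differed by 0.72, Acyp2, an acylphosphatase, by 0.83 and probe sets of Zfp292 and Larp4b by 0.84 and 1.03; other probe sets of Zfp292 and Larp4b did not share the difference. A further pair of probe sets, with no gene named here, differed by -1.15 and 0.68. Of the 8, only Hamp and the Zfp292 probe set were called in the left atrium itself, while 7 were called in the right, all but Hamp. Each call other than that of Hamp was lost with any of at least 5 of the 12 arrays left out. With left and right atria of one operation and number as a pair, Hamp and the unnamed probe set at -1.15 were still called and the other 6 were not (adjusted p 0.115 to 0.132).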

How the results depend on the processing

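The count of 233 probe sets called in left shunt minus sham ran from 77 to 554 as single arrays were left out. It was 13 with only the left arrays, and 124 with these and without left shunt replicate 3. It was 453 without dim probe sets, 485 with trend and robust options and 370 with array weights. Quantile normalization again (230) and medians subtracted (255) moved it less, and with the replicate number as a block it was 248. Fits by gene gave 204 genes with 1 probe set per gene and 223 with the mean of probe sets. The main fit called 133 genes. The 8 probe sets that differed between sides became 0 to 21 as arrays were left out, 3 with the replicate block, 3 with left and right atria of one operation and number paired as a block, an alternative chosen after seeing the data (Hamp 1.69, adjusted p = 0.0121), 19 without dim probe sets, 4 with medians subtracted, 15 with trend and robust options and 15 with array weights. Of 56 named genes called, 26 were called with any 1 array left out and 9 under every alternative that tested them (Hamp, H19, Gpr15lg, Rasd1, Aurkb, Igfbp3, Fgg, Pdk4 and Slc17a7); 50 were called with the block. No called gene changed direction. Uncalled genes did as single arrays were left out: Ccnd2 (-0.17 to 0.60), Id2 (-0.06 to 0.71), Postn (-0.10 to 0.34), Tent5c (-0.06 to 0.78) and Col1a1 (-0.11 to 0.08). So did Col1a1 with only left arrays and without shunt replicate 3 (0.08) or with array weights (0.03), and Nppa with quantile normalization again (0.00). The cause was not tested. Precision is limited by 3 pools per group, and genes such as Cxcl13 lie near the low end of the scale.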

Other observations

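Lists not described above gave few calls. Of 29 sarcomere genes Myh7 and Acta1 rose, of 26 interferon and antigen presentation genes RT1-Da rose, of 29 genes of glucose use Pdk4 fell, and of 23 genes of matrix turnover Timp4 fell. None of 29 oxidative stress genes or 25 genes of the angiotensin, endothelin, adrenergic and muscarinic systems was called with all arrays. Without shunt replicate 3, Cybb, the phagocyte NADPH oxidase subunit, differed by 0.80 (adjusted p = 0.0063) and Ramp1, a subunit of the receptor for calcitonin gene-related peptide, by -0.92 (adjusted p = 0.00823).

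Markers of other cell types were mostly not called either. With all arrays there was no call among 15 smooth muscle and mural, 15 lymphocyte, 12 granulocyte, 13 mesothelial, 8 Schwann cell or 10 endocardial and lymphatic markers. Without shunt replicate 3, Pdgfrb, the growth factor receptor of pericytes, differed by 0.67 (adjusted p = 0.00304), Smtn, a smooth muscle cytoskeletal protein, by -0.40 (adjusted p = 0.0284), and Pmp22, a myelin protein, by 0.36 (adjusted p = 0.0447). A second probe set of Lyve1, a marker of lymphatic vessels and some macrophages, fell by 0.45 with all arrays (adjusted p = 0.0358).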
